A study of Mus musculus with 32 samples.

Results

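Repeated carbon tetrachloride (CCl4) injury was examined here in the livers of hypothyroid mice that lack thyroid hormone receptor beta. The 8 libraries came from the knockout animals that drank no hormone: 4 given CCl4 and 4 given oil, chosen by their labels out of 32 libraries in all. The whole series crosses the Thrb knockout with wild type, CCl4 with oil, and triiodothyronine (T3) with phosphate-buffered saline (PBS), in 8 groups of 4 mice. In both groups compared, every animal carried the Thrb knockout, ate the PTU/LID diet that blocks thyroid hormone synthesis, and received PBS in place of T3. The treated group was injected with CCl4 at 0.4 µl/g, 2 times a week for 4 weeks, 9 injections in total, and the labels name olive oil for the other group. RNA was purified from liver 24 hours after the last CCl4 injection. The labels give no strain, age or sex and no details of the deletion, and give each library its own animal number. Animals are numbered 1 to 4 within each group below; a shared number does not mark a pair.

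CCl4 is turned into a toxic radical by cytochrome P450 2E1, which hepatocytes around the central vein hold in the largest amounts, so repeated doses kill those cells and leave scars. Dying hepatocytes draw in macrophages and turn hepatic stellate cells, the vitamin A store of the liver, into contractile myofibroblasts that lay down collagen. The hepatocytes that survive divide and lower many of their specialised functions. Thyroid hormone acts through 2 nuclear receptors, of which beta is the main form in hepatocytes and alpha, from Thra, the main form in many other cells. Whole-liver RNA mixes all these cells, so fewer cells of a type and less RNA per cell cannot be told apart in any value below.

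The 8 libraries held 17447900 to 25306799 counts over genes. Levels are in CPM, counts scaled to the same library total with the TMM factors of edgeR, and effects are log2 fold changes of CCl4 over oil with their standard errors. A gene was called when its adjusted p in edgeR's quasi-likelihood test was 0.05 or less. Hepatocyte markers were high in all libraries (Cps1, of the urea cycle, at 1790 to 5490 CPM), and sinusoidal, stellate, Kupffer and biliary markers were present. The pancreatic Ctrb1 and Cpa1 and the renal Slc12a1 were at 0. Cela1, also listed as a pancreatic marker, had 10.3 to 12.5 CPM with oil and 4.39 to 12.9 CPM with CCl4. The gut marker Fabp2 had 41.3 to 62.5 and 47.7 to 109 CPM. Whether their transcripts came from liver cells was not tested. Thrb transcripts were still counted in every knockout library, so the counts do not check the deletion, whose position the labels do not give. Thrb had 30.7, 35.7, 42.6 and 34.6 CPM in oil animals 1 to 4 and 23.1, 21.9, 15.9 and 19.1 CPM in CCl4 animals 1 to 4. All CCl4 animals lay below all oil animals (-0.85 ± 0.21, adjusted p = 0.00418), and wild-type oil animals had 50.2 to 66.4 CPM. Thra, the gene of the other receptor, had 14.5 to 26.3 CPM with oil and 8.77 to 12.6 CPM with CCl4 (-0.99 ± 0.21, adjusted p = 0.00111).

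A library in each group stood apart from the other 3. CCl4 animal 3 differed by more than 2-fold from the mean of the other 3 in 1790 of 15599 genes, against 252, 388 and 411 genes for CCl4 animals 1, 2 and 4. It carried transcripts of skeletal muscle: 23 striated muscle genes, listed after the data were seen, summed to 2174 CPM there and to 12.5 to 24.7 CPM in the other 7 libraries. Among them, Ckm, the muscle creatine kinase, had 147 CPM in that library and at most 0.0452 CPM in the other 7. Fat cell genes, a list also written later, were present there too. Cfd, the adipocyte protease adipsin, had 15.4 CPM against at most 0.1 CPM in the other 7 libraries, the hormone gene Adipoq 5.09 against at most 0.132 CPM, and Plin1, a droplet coat protein of fat cells, 3.03 against at most 0.185 CPM. The whole fat list of 10 genes, most of which was Car3 with oil, an enzyme gene that hepatocytes also express, summed to 335.9 CPM in that library, 104.1 to 405.7 CPM in the other CCl4 animals and 546.8 to 1598 CPM with oil. One of the wild-type CCl4 animals had a muscle sum of 1122 CPM. Oil animal 2 differed in 361 genes, against 82 to 237 for the other oil animals. Clock genes were among them: Dbp, a clock output factor, had 20.4 CPM there and 0.352 to 0.709 CPM in the other oil animals, and Arntl, the core clock activator, had 16.2 against 55.7 to 67.1 CPM. This was not particular to that animal: Arntl had 11.2 to 34.1 CPM in all CCl4 animals, and 25.9 and 36.3 CPM in wild-type oil animals 2 and 3, against 66.4 and 64 CPM in wild-type oil animals 1 and 4. The labels give no hour of tissue collection. Counts below are also given without CCl4 animal 3 where its loss moves them by more than 1.5 times.

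With CCl4, 4854 of 15599 genes tested (31.1%) were called, 2770 higher (17.8%) and 2084 lower (13.4%). Of these, 1342 genes rose by at least 1 on the log2 scale and 720 fell by at least as much. Groups did not overlap for 2112 of the genes called higher and 1665 of those called lower. Over all genes tested, every CCl4 animal lay above every oil animal for 2524 genes (16.2%) and below for 2198 (14.1%). Without CCl4 animal 3, 1787 genes were called higher (11.3%) and 1205 lower (7.63%), and 2877 of these 2992 were among the 4854. The split depended on scaling. The median over all genes was 0.037 with TMM factors, but 0.349 with plain library totals, which called 5467 genes higher and 866 lower (86.3% higher, against 57.1%).

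**Figure D1:**
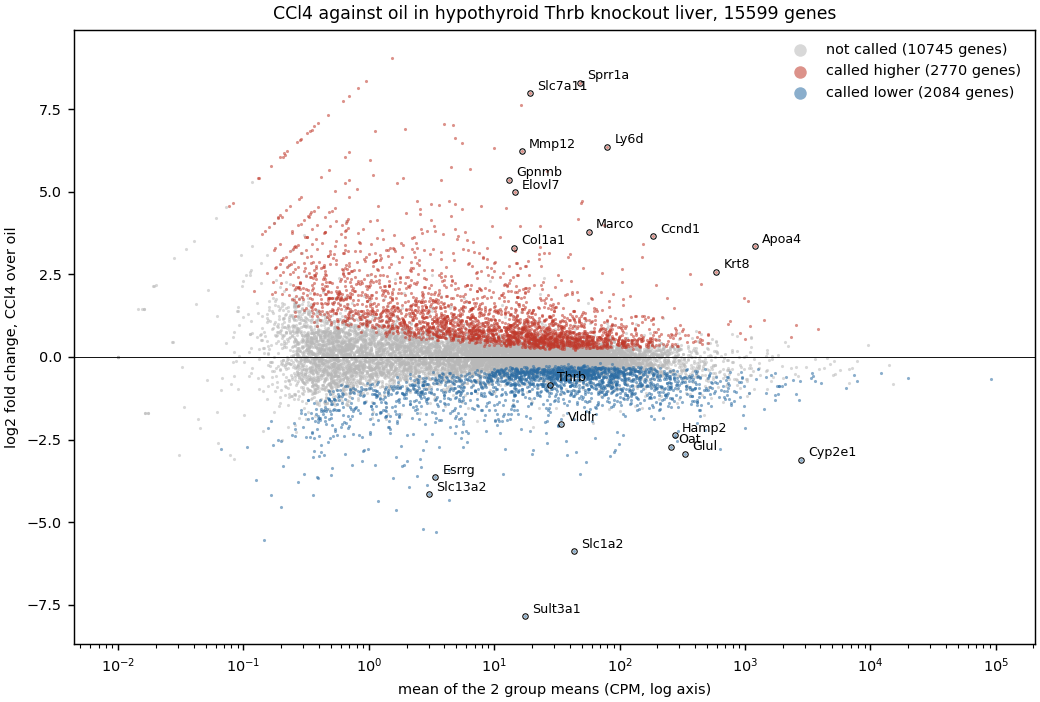
Each point is 1 of 15599 genes, with the mean of both group means in CPM on a log axis and the log2 fold change of CCl4 over oil on the vertical axis. Genes called higher (2770) are red, genes called lower (2084) blue and the other 10745 grey; the marked genes are described in the text, among them Slc7a11 at 7.98 and Slc1a2 at -5.89.

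Several of the large rises came from genes that were close to silent with oil. Slc7a11, the cystine transporter that feeds glutathione synthesis, had 0.251, 0.185, 0 and 0.177 CPM in oil animals 1 to 4. With CCl4 it had 59.1, 28.9, 16.4 and 49.5 CPM, so the lowest injured animal, number 3, was still far above every control (7.98 ± 0.78, adjusted p = 1.4e-07). Mmp12, the macrophage elastase, had 0.401, 0.247, 0.616 and 0.414 CPM with oil and 27.1, 48.7, 18.1 and 37.8 CPM with CCl4 (6.24 ± 0.66, adjusted p = 3.96e-07). Elovl7, which elongates very long fatty acids, went from 1.2, 0.802, 1.19 and 0.296 to 30.3, 13.4, 48.2 and 21.9 CPM (4.99 ± 0.49, adjusted p = 1.4e-07). Ly6d, a small membrane-anchored protein, went from 3.01, 1.73, 1.06 and 1.83 to 59.5, 47.3, 380 and 144 CPM (6.37 ± 0.65, adjusted p = 2.68e-07), with its peak in CCl4 animal 3. Wfdc3, a protease inhibitor domain protein, was at 0.044 to 0.451 CPM with oil and 17.1 to 22.9 CPM with CCl4 (6.33 ± 0.62, adjusted p = 1.4e-07). The smallest adjusted p belonged to Tagln2, an actin-binding protein, which had 25.3, 28.1, 28.1 and 25.2 CPM with oil and 91.9, 67.3, 117 and 89.4 CPM with CCl4 (1.78 ± 0.16, adjusted p = 1.22e-07). Cd63, a membrane protein of lysosomes, rose by 4.17 ± 0.41, adjusted p = 1.4e-07 and the secreted lectin Lgals3 by 4.65 ± 0.50, adjusted p = 4.28e-07.

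CCl4 animal 3 added to some large rises. Cidec, a coat protein of lipid droplets, had 9.67, 5.01, 174 and 16.7 CPM in CCl4 animals 1 to 4 against 0.66 to 1.97 CPM with oil. Its effect of 5.62 was 3.31 without animal 3 and was still called (adjusted p = 0.00164). Flnc, a filamin of muscle, had 0.609, 1.11, 36.2 and 0.587 CPM, and its effect fell from 6.64 to 2.98 without animal 3 (adjusted p = 0.0549). These high values and the muscle and fat cell transcripts were found in the same library; the part of muscle or fat RNA in other results was not tested beyond leaving that library out.

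Large falls included transporters, sulfotransferases and a nuclear receptor. Slc1a2, a glutamate transporter of the hepatocytes next to the central vein, had 99.7, 29.8, 104 and 105 CPM with oil and 4.19, 0.481, 0.517 and 0.271 CPM with CCl4 (-5.89 ± 0.72, adjusted p = 2.07e-06). Oil animal 2 was low among the controls but still above every injured animal. Slc13a2, a carrier of citric acid cycle intermediates, went from 4.63-7.33 CPM to 0.136-0.722 CPM (-4.16 ± 0.49, adjusted p = 1.12e-06). Esrrg, an orphan nuclear receptor of energy metabolism, went from 3.76, 6.04, 7.87 and 7.39 CPM to 0.609, 0.241, 0.517 and 0.587 CPM (-3.65 ± 0.39, adjusted p = 4.29e-07). Hao2, a peroxisomal hydroxyacid oxidase, went from 55.1-84.4 CPM to 1.33-13.3 CPM (-2.97 ± 0.68, adjusted p = 0.00195). Sulfotransferases, which attach sulfate to steroids and drugs, were among them. Sult3a1 had 35, 2.78, 14.3 and 87.7 CPM in oil animals 1 to 4 and at most 0.433 CPM with CCl4 (-7.85 ± 1.28, adjusted p = 7.66e-05), and Sult2a7 went from 6.16-10.5 CPM to 0-0.678 CPM (-4.32 ± 0.60, adjusted p = 1.06e-05). Reads of near-identical sulfotransferase, P450 and serum amyloid paralogs may be shared between family members.

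Gene lists were read against the shares of all genes called, 17.8% higher and 13.4% lower. Lists of scar, recruited macrophage, stress and division genes held more members called higher than lower, and lists of hepatocyte function more called lower than higher. Counts lower were smaller when only the 8 libraries compared were fitted: 5 of complement and coagulation (14 in the fit of all 32 libraries), 1 of secreted proteins (8), 5 of periportal genes (10), 1 of cholesterol synthesis (5), 6 of lipogenesis (10), 3 of fatty acid oxidation (7), 6 of nuclear and 1 of mitochondrial respiratory chain genes (20 and 6), and 5 of thyroid hormone genes (8). Of the counts higher, those of TGF-beta and NRF2 genes went to 5 each (8 and 9).

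**Figure D2:**
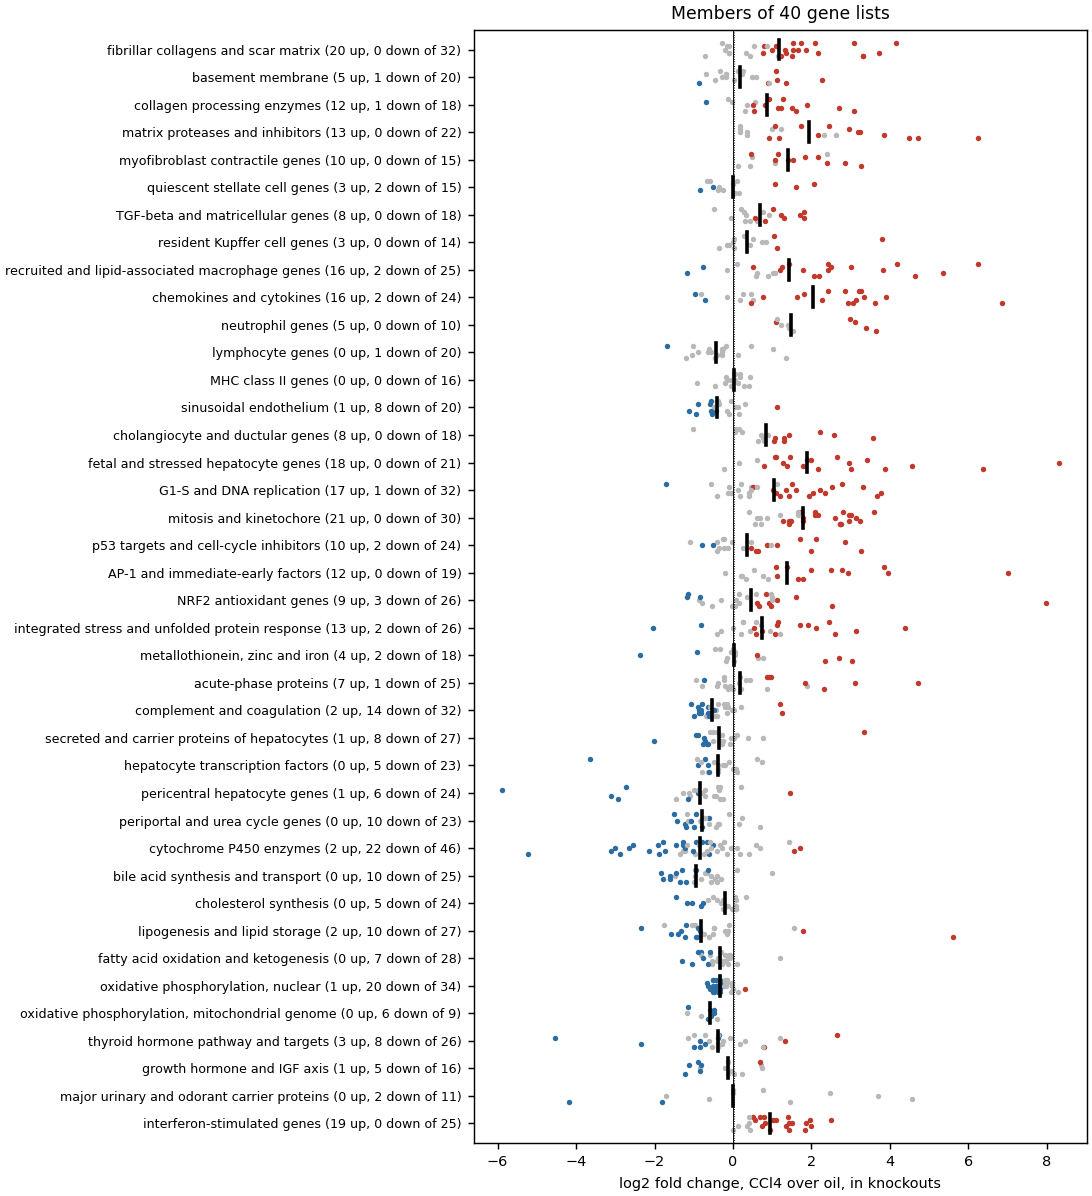
Each point is 1 tested gene of a list and gives its log2 fold change, CCl4 over oil, in knockouts; red points were called higher, blue points lower and grey points not called, and the black bar is the list's median. The dotted line is the median of all genes (0.037); medians run from 2.04 for chemokines and cytokines to -0.95 for bile acid genes.

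Most scar genes were called higher. Of 32 fibrillar collagens and matrix proteins, 20 were called higher and 0 lower, with a median log2 fold change of 1.18. Col1a1, the main chain of scar collagen, had 2.11, 2.71, 3.03 and 2.6 CPM in oil animals 1 to 4 and 13.7, 34.2, 19.9 and 36.1 CPM in CCl4 animals 1 to 4 (3.31 ± 0.47, adjusted p = 1.38e-05). Every injured animal lay above every control, and animals 2 and 4 had the most. Tnc, a matrix protein of healing wounds, went from 0.177-0.451 CPM to 2.94, 8.23, 6.13 and 6.33 CPM (4.15 ± 0.50, adjusted p = 1.46e-06). Thbs1, a matrix protein that activates latent TGF-beta, had 10.1, 10.2, 35.6 and 8.22 CPM with CCl4, 3 animals alike and number 3 higher (3.30 ± 0.50, adjusted p = 2.82e-05). Abundant members did not pass the test: Fn1, which hepatocytes secrete as plasma fibronectin, had 1520, 1674, 1427 and 1777 CPM with oil and 1576, 1960, 929 and 1540 CPM with CCl4 (-0.09 ± 0.22, adjusted p = 0.774), and Dcn, which binds collagen fibrils, had -0.29 ± 0.17, adjusted p = 0.189.

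Of 18 collagen-handling enzymes, 12 were called higher and 1 lower. Loxl2, which cross-links collagen, rose by 1.89 ± 0.26, adjusted p = 9.56e-06. Its relative Loxl1, also called higher, had 0.493 to 0.702 CPM with oil and 1.61 to 5.34 CPM with CCl4. P3h1, a collagen prolyl hydroxylase, had 17.7, 23.1, 17.8 and 17.9 CPM with oil and 39.8, 40.2, 48.8 and 40 CPM with CCl4 (1.14 ± 0.14, adjusted p = 3.05e-06). Bmp1, the protease that trims procollagen ends, was the 1 called lower (-0.69 ± 0.16, adjusted p = 0.00281). Of 20 basement membrane genes, 5 were called higher (25%, against 17.8% of all genes) and 1 lower (5%, against 13.4%). The lower count was 0 without CCl4 animal 1 or 3 or oil animal 4. Nid1, which links laminin to collagen IV, rose from 30.5-40.4 CPM to 114, 105, 360 and 110 CPM (2.28 ± 0.35, adjusted p = 4.28e-05), and Col4a1 rose by 1.36 ± 0.21, adjusted p = 5.28e-05. Among proteases and their inhibitors, 13 of 22 were called higher and 0 lower. Timp1, an inhibitor of matrix metalloproteinases, had 0.201, 0.185, 0.484 and 0.355 CPM with oil and 4.3, 15.9, 7.49 and 5.87 CPM with CCl4 (4.72 ± 0.56, adjusted p = 1.18e-06). Animal 2 had the most Timp1. Adam8, a metalloproteinase of leukocytes, rose by 3.18 ± 0.37, adjusted p = 1.12e-06, and Plaur, the urokinase receptor, by 4.48 ± 0.57, adjusted p = 3.53e-06.

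Contractile genes of myofibroblasts were called higher in the main. Of 15 contractile genes, 10 were called higher and 0 lower. Tagln, an actin-binding protein of smooth muscle and myofibroblasts, had 4.41, 4.07, 3.39 and 2.96 CPM with oil and 13.5, 24.7, 44.3 and 24.8 CPM with CCl4 (2.85 ± 0.38, adjusted p = 5.34e-06), without overlap. Acta2, the smooth muscle actin used to mark myofibroblasts, went from 0.678-1.81 CPM to 2.90-18.1 CPM (3.26 ± 0.63, adjusted p = 0.000429). Tpm1, a tropomyosin, rose from 44-64.3 CPM to 166, 135, 337 and 119 CPM (1.85 ± 0.25, adjusted p = 7.86e-06). The list holds genes that striated muscle also expresses; without CCl4 animal 3, 9 were still called higher. Of 15 quiescent stellate genes, 3 were called higher (20%) and 2 lower (13.3%), close to the shares of all genes; the lower count was 1 without oil animal 1 and 4 without oil animal 2. Bco1, which cleaves beta-carotene to vitamin A aldehyde, rose from 7.12, 13.2, 9.06 and 8.04 CPM to 34.1, 25.3, 62.1 and 34.2 CPM (2.06 ± 0.22, adjusted p = 3.52e-07). Colec11, a stellate cell lectin, fell (-0.85 ± 0.23, adjusted p = 0.00774), while Reln, a stellate glycoprotein, had 69.5, 68.6, 73.7 and 74.8 CPM with oil and 55.5, 67.7, 34.7 and 62.6 CPM with CCl4 and did not pass (-0.38 ± 0.21, adjusted p = 0.17). Lrat, which esterifies vitamin A in stellate cells, had 19.2 to 23.5 CPM with oil and 15.8 to 26.9 CPM with CCl4 (0.05 ± 0.26, adjusted p = 0.909).

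TGF-beta targets and matricellular genes had 8 of 18 members called higher and 0 lower. Ccn1, a matricellular protein induced by mechanical and growth signals, had 14.4, 9.81, 12 and 8.22 CPM with oil and 22.9, 23.4, 73.4 and 26.7 CPM with CCl4 (1.72 ± 0.34, adjusted p = 0.000532). Tgfbr2, the type II TGF-beta receptor, rose by 1.02 ± 0.22, adjusted p = 0.00122, and Pmepa1, a feedback inhibitor of that pathway, by 1.22 ± 0.28, adjusted p = 0.00211. For all of Ccn1, Tgfbr2 and Pmepa1 the highest value was in CCl4 animal 3. The count was 5 without oil animal 1 or without oil animal 4.

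Macrophage genes were read as 2 lists, recruited and resident. Of 25 recruited and lipid-associated macrophage genes, 16 were called higher and 2 lower. Gpnmb, a lysosomal glycoprotein of lipid-laden macrophages, had 0.502, 0.37, 1.36 and 0.118 CPM in oil animals 1 to 4 and 21.1, 31.8, 14.7 and 35.6 CPM in CCl4 animals 1 to 4 (5.36 ± 0.61, adjusted p = 8.85e-07). Trem2, a lipid receptor of the same cells, went from 0.123-0.704 CPM to 3.54-9.63 CPM (3.83 ± 0.54, adjusted p = 1.17e-05), and Ccr2, the receptor that draws monocytes into tissue, from 1.56-2.20 to 6.37-9.76 CPM (2.06 ± 0.31, adjusted p = 2.65e-05). Ly6c2, also a marker of recruited cells, did not pass (1.06 ± 0.43, adjusted p = 0.0571). It overlapped, with 0.264 to 0.602 CPM with oil and 0.517 to 1.13 CPM with CCl4. The scavenger receptor Cd36 had -0.77 ± 0.29, adjusted p = 0.0443, a call lost in 10 of 15 alternatives, and the count of 2 lower was 0 without CCl4 animal 1 or 3 or oil animal 2 or 3, and 1 without any other single library. Of 14 resident Kupffer cell genes, 3 were called higher (21.4%, close to the 17.8% of all genes) and 0 lower, and 8 higher with plain library totals. Marco, a scavenger receptor of macrophages, had 6.47, 14.7, 5.76 and 3.78 CPM with oil and 93.6, 86.4, 83.7 and 159 CPM with CCl4 (3.79 ± 0.44, adjusted p = 9.36e-07), with animal 4 the highest. Clec4f, a lectin used to mark mouse Kupffer cells, had 31.2, 42.1, 40.1 and 49.1 CPM with oil and 24.8, 48.1, 18.2 and 35.4 CPM with CCl4 and did not pass (-0.36 ± 0.30, adjusted p = 0.368). Timd4 and Vsig4, further resident markers, had adjusted p of 0.257 and 0.991. Cd5l, also used to mark Kupffer cells, was called higher (1.05 ± 0.31, adjusted p = 0.012). It overlapped, with 33.1 to 46.3 CPM with oil and 35 to 110 CPM with CCl4.

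Chemokines and cytokines had 16 of 24 tested members called higher and 2 lower, the latter 1 without CCl4 animal 1 or 3 or oil animal 1 or 3. Ccl6, a macrophage chemokine, went from 3.61, 4.5, 4.57 and 4.97 CPM to 20.7, 32.1, 25.8 and 16.6 CPM (2.43 ± 0.24, adjusted p = 1.42e-07). Il1rn, the interleukin 1 receptor antagonist, had 18.8, 23.2, 16.3 and 11.9 CPM with CCl4 against 1.98 to 3.27 CPM with oil (2.86 ± 0.56, adjusted p = 0.000491). Cxcl12, a chemokine made by resting liver cells, fell from 507, 523, 483 and 484 CPM to 290, 314, 135 and 286 CPM (-0.96 ± 0.21, adjusted p = 0.00138). The summed level of the list, of which Cxcl12 made up the most, was lower in all 4 CCl4 animals (323.8 to 531.2 CPM) than in the oil animals (652.6 to 664.4 CPM), although most members were called higher. Of 10 neutrophil genes tested, 5 were called higher and 0 lower, and the count was 3 without CCl4 animal 4 or without oil animal 1, 2 or 3. Lcn2, an iron-scavenging protein of neutrophils and stressed hepatocytes, had 17, 5.3, 3.12 and 7.86 CPM with oil and 42.8, 109, 77.8 and 59.1 CPM with CCl4 (3.11 ± 0.64, adjusted p = 0.000815). S100a9, a subunit of calprotectin, had 2.56, 2.1, 3.65 and 3.9 CPM with oil and 5.52, 6.6, 9.49 and 11.6 CPM with CCl4 (1.44 ± 0.57, adjusted p = 0.055). Ly6g, which defines mouse neutrophils, was at 0 in all oil animals and at most 0.136 CPM with CCl4.

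Few lymphocyte and antigen presentation genes were called. Of 20 lymphocyte genes, edgeR called 0 higher and 1 lower, with 0 higher and 5 lower at an unadjusted p below 0.05, and DESeq2 called 0 higher and 3 lower. The lower count was 0 without CCl4 animal 3 or oil animal 3, 2 without CCl4 animal 1 or oil animal 4, and 3 without CCl4 animal 2 or oil animal 1 or 2. Of 16 class II antigen presentation genes, edgeR and DESeq2 called 0 in either direction, and 0 was higher and 1 lower at an unadjusted p below 0.05. Cd74, the class II invariant chain, had 44.7, 39, 47.5 and 61.4 CPM with oil and 38.1, 49.3, 35.5 and 47.1 CPM with CCl4 (-0.18 ± 0.27, adjusted p = 0.636). Cd3e, part of the T cell receptor complex, had 0.555 to 0.65 CPM with oil and 0.295 to 0.573 CPM with CCl4 (-0.46 ± 0.47, adjusted p = 0.473). Of 25 interferon-stimulated genes, 19 were called higher and 0 lower, with a median of 0.93. Xaf1, an apoptosis factor induced by interferon, had 4.31, 3.7, 4.66 and 4.43 CPM with oil and 12.6, 9.34, 12.5 and 9.62 CPM with CCl4 (1.36 ± 0.21, adjusted p = 3.82e-05). Oasl2 and Ifi27l2a, further interferon targets, rose by 1.40 ± 0.24, adjusted p = 0.000117 and 1.84 ± 0.24, adjusted p = 4.31e-06.

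Promoters of several interferon and stress genes held the letters of sites known for the factors of those pathways. RefSeq promoter windows on GRCm38.p6 were matched by symbol for 11344 of the 15599 genes tested, and the 250 bases before each start were searched on both strands. The interferon response element, GAAA and GAAA with 2 bases of any kind between, was found for 9 of 17 interferon-stimulated genes with a window (52.9%) and for 384 of all 11344 (3.39%). The AP-1 site TGACTCA was found for 131 of 2116 genes called higher (6.19%), 66 of 1520 called lower (4.34%) and 305 of 7708 not called (3.96%). Among protease genes, 5 of 15 held it (33.3%): Mmp7, Mmp12, Mmp13, Plaur and Mmp3, of which all but Mmp3 were called higher. These Mmp genes all lie on the plus strand of chromosome 9, with the site 35 to 63 bases before the start. As members of 1 family they may share sequence, so the 5 are not separate observations. The share was 27.3% for metallothionein, zinc and iron genes and 23.1% for fetal and stressed hepatocyte genes. The stretches shown belong to genes called higher, read 5′ to 3′ along the gene's strand, with the matched letters of either strand in capitals. Sprr1a, S100a11, Anxa2, Plaur and Srxn1 are shown for the AP-1 site, as stress, protease and antioxidant genes, and Isg15, Ifit1 and Oas1a for the interferon element.
Sprr1a, chr3:92485976-92486042, minus strand, 161 to 95 bases before the start: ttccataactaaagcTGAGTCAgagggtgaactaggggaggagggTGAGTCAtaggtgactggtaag
Srxn1, chr2:152105407-152105500, plus strand, 117 to 24 bases before the start: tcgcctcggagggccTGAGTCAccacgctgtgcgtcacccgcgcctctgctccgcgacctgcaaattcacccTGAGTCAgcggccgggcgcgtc
S100a11, chr3:93520345-93520479, plus strand, 151 to 17 bases before the start: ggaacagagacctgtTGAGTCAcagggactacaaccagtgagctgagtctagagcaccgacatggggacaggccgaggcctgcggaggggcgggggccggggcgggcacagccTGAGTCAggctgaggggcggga
Plaur, chr7:24462399-24462435, plus strand, 84 to 48 bases before the start: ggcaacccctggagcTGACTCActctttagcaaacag
Anxa2, chr9:69453573-69453609, plus strand, 110 to 74 bases before the start: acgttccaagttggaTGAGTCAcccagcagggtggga
Isg15, chr4:156200860-156200911, minus strand, 93 to 42 bases before the start: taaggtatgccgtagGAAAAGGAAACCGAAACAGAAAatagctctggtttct
Ifit1, chr19:34640770-34640828, plus strand, 119 to 61 bases before the start: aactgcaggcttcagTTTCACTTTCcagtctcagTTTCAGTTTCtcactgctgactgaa
Oas1a, chr5:120907526-120907560, minus strand, 35 to 1 bases before the start: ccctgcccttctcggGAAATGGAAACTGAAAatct
A match is a run of letters in this window and does not show that a factor bound there. The letters TGACTCA overlapped the antioxidant response element core TGACNNNGC in 54 genes. That core was found for 14.2% of genes called higher, 12.5% of those called lower and 13.7% of all. It was found for 6 of 22 NRF2 targets (27.3%), and for 33.3% of TGF-beta and matricellular genes and 28.6% of AP-1 and immediate-early factors. In 26 mitotic genes, the letters CCAAT were found for 76.9% and TTTGAA for 34.6%, against 40% and 13.4% of all genes. Other lists had as much or more: CCAAT was found for all 16 cholesterol synthesis genes and for 20 of 25 integrated stress genes (80%), and TTTGAA for 15 of 39 P450 genes (38.5%) and 5 of 12 Kupffer cell genes (41.7%). The HNF4A site CAAAGTCCA was found for 19 of 1520 genes called lower (1.25%) and 66 of all 11344 (0.582%). Of 39 cytochrome P450 promoters, 8 held it (20.5%), all in the Cyp2c and Cyp3a families, whose copies share sequence, and 6 of those 8 genes were called lower. The thyroid hormone response element of AGGTCA and AGGTCA with 4 bases between was found for 0 genes, and the HNF1 palindrome of GTTAAT and ATTAAC with 1 base between for 1.

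Among sinusoidal endothelial genes more were called lower, and among biliary genes more were called higher. Of 20 endothelial genes, 8 were called lower and 1 higher, the latter 0 without CCl4 animal 1, 3 or 4 or oil animal 1, 3 or 4. The sinusoidal marker Lyve1 was called higher (1.13 ± 0.44, adjusted p = 0.0489). It overlapped, with 4.02 to 9 CPM with oil and 8.28 to 21.3 CPM with CCl4. The markers Stab2 (-0.43 ± 0.16, adjusted p = 0.0387) and Clec4g (-0.58 ± 0.19, adjusted p = 0.0216) were called lower. Ehd3, a membrane-trafficking protein of sinusoidal cells, had 93.2, 88.9, 100 and 84.8 CPM with oil and 37.9, 45.6, 35.9 and 48.2 CPM with CCl4 (-1.13 ± 0.20, adjusted p = 0.000147). Kdr, the main VEGF receptor, had 55.2, 45.9, 58.7 and 48.7 CPM with oil and a narrow 26.9 to 31.1 CPM with CCl4 (-0.89 ± 0.19, adjusted p = 0.00144). Dnase1l3, a secreted nuclease, fell by 0.95 ± 0.20 on the log2 scale, adjusted p = 0.00131, and Stab1, a scavenger receptor, did not pass (-0.11 ± 0.16, adjusted p = 0.643). With plain library totals 3 were called lower, and without CCl4 animal 1 or oil animal 3 the count was 4 or 5. Of 18 biliary and ductular genes, 8 were called higher and 0 lower; the count was 4 without CCl4 animal 3 or oil animal 4 and 5 without oil animal 1, and 1 was lower without CCl4 animal 4 or oil animal 1. Sox9, a transcription factor of bile ducts and of hepatocytes near them, went from 9.03, 5.12, 5.94 and 6.21 CPM to 17.1, 17.8, 17.7 and 12.3 CPM (1.30 ± 0.32, adjusted p = 0.00343). Cldn4, a tight junction protein, rose by 3.57 ± 0.71, adjusted p = 0.000584. Krt8, a keratin of hepatocytes and ducts, was far higher in CCl4 animal 3, with 171, 165, 144 and 195 CPM with oil and 656, 563, 2360 and 469 CPM with CCl4 (2.58 ± 0.44, adjusted p = 0.00013).

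Stressed hepatocyte genes were mostly called higher. Of 21 fetal and stressed hepatocyte genes tested, 18 were called higher and 0 lower, and 13 without CCl4 animal 3. Anxa2, a calcium-dependent membrane-binding protein that injured hepatocytes make, had 21.3, 39.1, 22.8 and 23.3 CPM with oil and 227, 195, 509 and 201 CPM with CCl4 (3.41 ± 0.37, adjusted p = 4.29e-07). The related Anxa5 had 277, 228, 505 and 275 CPM against 56.6 to 82.8 CPM (2.17 ± 0.25, adjusted p = 8.98e-07). S100a11, a calcium-binding protein, rose by 2.96 ± 0.28, adjusted p = 1.4e-07. Sprr1a, a squamous epithelial protein, was at 1.05, 0, 0.044 and 0.0591 CPM with oil and 84.8, 35, 198 and 70.1 CPM with CCl4 (8.30 ± 1.15, adjusted p = 9.61e-06). Of 19 AP-1 and immediate-early factors, 12 were called higher and 0 lower. Myc had 4.46, 5.49, 2.46 and 5.85 CPM with oil and 40.8, 22, 29.6 and 30.9 CPM with CCl4 (2.77 ± 0.37, adjusted p = 5.5e-06). Atf3, a stress-induced repressor, had 74.9, 22.4, 32.6 and 45.5 CPM with CCl4, highest in animal 1 (3.96 ± 0.70, adjusted p = 0.000198). Mafk, a small partner of both AP-1 and NRF2 proteins, rose by 1.09 ± 0.19, adjusted p = 0.000128.

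Antioxidant and protein-stress genes were called in part. Of 26 NRF2 targets, 9 were called higher and 3 lower, and 4 and 1 without CCl4 animal 3. The count higher was 5 without oil animal 2, and the count lower 1 without CCl4 animal 1 or oil animal 1. Srxn1, sulfiredoxin, had 73.2, 121, 112 and 128 CPM with oil and 724, 408, 984 and 380 CPM with CCl4 (2.52 ± 0.33, adjusted p = 5.59e-06), and Hmox1, heme oxygenase, rose by 1.60 ± 0.22, adjusted p = 7.86e-06. Gsta3, an abundant glutathione transferase of hepatocytes, fell from 2507, 1538, 2588 and 2939 CPM to 1074, 1417, 501 and 1310 CPM (-1.15 ± 0.31, adjusted p = 0.00662). Of 26 genes of the integrated stress and unfolded protein responses, 13 were called higher and 2 lower, with 1 lower without CCl4 animal 3 or oil animal 4. Phgdh, which starts serine synthesis, went from 0.0502, 0.308, 0.088 and 0.296 CPM to 4.55, 1.2, 4.43 and 4.74 CPM (4.37 ± 0.72, adjusted p = 8.21e-05). Ddit3, the stress factor CHOP, rose by 2.11 ± 0.45, adjusted p = 0.00108, and Creld2, an endoplasmic reticulum chaperone, by 1.71 ± 0.40, adjusted p = 0.00254. Vldlr, the very low density lipoprotein receptor, fell from 48.6, 66.7, 49 and 54 CPM to 17.6, 6.69, 9.27 and 19.5 CPM (-2.04 ± 0.32, adjusted p = 5.86e-05). Of 24 p53 targets and cell-cycle inhibitors, 10 were called higher and 2 lower, the latter 0 without CCl4 animal 3 and 1 without CCl4 animal 1 or 4 or any single oil animal. The death receptor Tnfrsf10b rose by 3.25 ± 0.38, adjusted p = 1.05e-06, and Eda2r, another p53-induced receptor of the same family, by 2.86 ± 0.49, adjusted p = 0.000151.

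Many genes of cell division were called higher. Of 32 genes of the G1-S step and DNA replication, 17 were called higher and 1 lower. Ccnd1, cyclin D1, which opens the cell cycle, had 29.6, 20.8, 38 and 20.4 CPM with oil and 413, 400, 228 and 337 CPM with CCl4 (3.66 ± 0.38, adjusted p = 3.52e-07). Animal 3 had the least among the injured animals but lay far above the controls. Mcm2, a subunit of the replicative helicase, had 12.2, 10.5, 37.7 and 19.3 CPM against 2.26 to 5.06 CPM (2.53 ± 0.34, adjusted p = 5.59e-06), and Ccne1, cyclin E1, rose by 3.30 ± 0.51, adjusted p = 4.23e-05. Tk1, thymidine kinase, was the 1 called lower: 19.3, 26, 18.3 and 31.3 CPM with oil and 5.66, 8.09, 3.25 and 12.1 CPM with CCl4 (-1.71 ± 0.40, adjusted p = 0.00232). Of 30 mitotic genes, 21 were called higher and 0 lower, also without CCl4 animal 3. Top2a, the topoisomerase that untangles sister chromosomes, had 0.351, 0.37, 0.352 and 0.532 CPM with oil and 1.4, 2.41, 3.1 and 6.19 CPM with CCl4 (3.02 ± 0.56, adjusted p = 0.000305). Cdk1, the kinase that drives mitosis, rose by 2.60 ± 0.45, adjusted p = 0.000157. The mitotic genes summed to 18.1 to 19.9 CPM with oil, 39.5, 40.1 and 49.1 CPM in CCl4 animals 1 to 3, and 86.4 CPM in animal 4. Without animal 4, 14 were called.

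**Figure D3:**
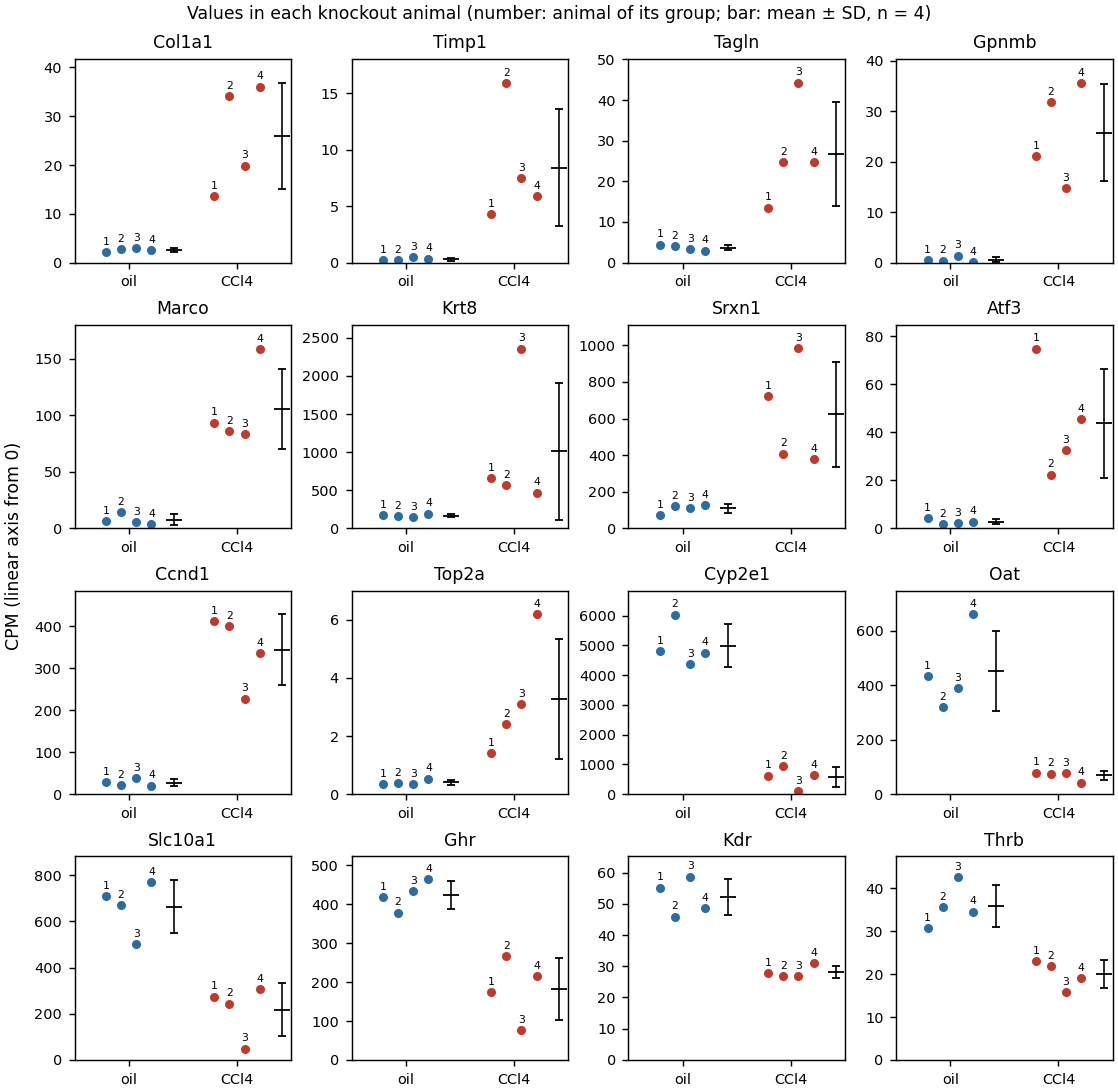
Each panel shows 1 gene, with CPM in each knockout animal on a linear axis from 0, oil in blue and CCl4 in red, numbered by animal; the black bar is the mean ± SD of 4 animals. Groups do not overlap in any panel; Krt8 is set apart by animal 3 (2360 CPM), Top2a by animal 4 (6.19 CPM).

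Cyp2e1, the enzyme that activates CCl4, was far lower in injured livers. It had 4793, 6032, 4377 and 4757 CPM in oil animals 1 to 4 and 625, 944, 109 and 631 CPM in CCl4 animals 1 to 4 (-3.11 ± 0.45, adjusted p = 2.02e-05). Animal 3 had the least, and no injured animal reached the controls. Oat, ornithine aminotransferase of the pericentral zone, had 434, 320, 389 and 660 CPM with oil and 78.7, 75.5, 77.7 and 42.3 CPM with CCl4 (-2.72 ± 0.43, adjusted p = 6.33e-05). Glul, glutamine synthetase of the hepatocytes next to the central vein, had 788, 76.2, 642 and 868 CPM with oil. Oil animal 2 thus lay within the 89.1, 71.8, 52.2 and 98 CPM of the CCl4 animals (-2.93 ± 0.68, adjusted p = 0.00239). Low Glul without injury was not particular to that animal: wild-type oil animals 1 to 4 had 752, 225, 53.9 and 19.1 CPM. Of 24 pericentral genes, 6 were called lower and 1 higher, the latter the amino acid transporter Slc1a4 (1.44 ± 0.38, adjusted p = 0.00614); DESeq2 called 10 lower. Of 46 cytochrome P450 genes tested, 22 were called lower and 2 higher, with 14 lower without CCl4 animal 3 and 1 higher without CCl4 animal 1 or oil animal 1 or 3. Cyp2d9 had 167, 200, 141 and 179 CPM with oil and 25.5, 44.8, 10.3 and 29.6 CPM with CCl4 (-2.64 ± 0.38, adjusted p = 1.87e-05). Cyp2a4, a steroid hydroxylase of female liver, was called higher with overlap, at 319, 803, 510 and 371 CPM with oil and 2321, 1112, 695 and 2381 CPM with CCl4 (1.70 ± 0.41, adjusted p = 0.00312).

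Some periportal genes were called lower. Of 23 periportal and urea cycle genes, 10 were called lower and 0 higher. The count was 4 without CCl4 animal 3, and 6 without CCl4 animal 1 or oil animal 4. Hal, histidine ammonia-lyase, had 799 ± 131 CPM (SD, n = 4) with oil and 222, 449, 69.9 and 396 CPM with CCl4 (-1.49 ± 0.38, adjusted p = 0.00446). Asl, argininosuccinate lyase of the urea cycle, had 249, 276, 69.9 and 267 CPM against 333 to 579 CPM (-1.13 ± 0.29, adjusted p = 0.00466), a call lost with only the 8 libraries in the fit (adjusted p = 0.0569). The summed list stood at 19860 to 24120 CPM with oil, and at 11400, 16200, 5959 and 16140 CPM in CCl4 animals 1 to 4. Pericentral genes, on the same measure, stood at 9066 to 10530 CPM with oil and 3256, 3933, 1084 and 3111 CPM with CCl4. Of 25 bile acid genes tested, 10 were called lower and 0 higher, with 5 lower and 1 higher without CCl4 animal 3 and 1 higher without oil animal 2. Slc10a1, which takes bile acids up from blood, had 711, 672, 502 and 772 CPM with oil and 274, 244, 48.8 and 307 CPM with CCl4 (-1.60 ± 0.43, adjusted p = 0.00696). Cyp7b1, an oxysterol hydroxylase of the alternative bile acid pathway, fell from 12.8-21.8 CPM to 2.03-8.18 CPM (-1.79 ± 0.31, adjusted p = 0.000158).

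Identity factors and secreted proteins of hepatocytes were called in part. Of 23 hepatocyte transcription factors tested, 5 were called lower and 0 higher. The count was 2 without CCl4 animal 3, 3 without oil animal 1 or 4, 1 was higher without oil animal 2, and 2 were lower with 2 higher under plain library totals. Nr5a2, a nuclear receptor of bile acid and cholesterol genes, fell from 98.6, 98.8, 91.4 and 86.3 CPM to 65.1, 68.8, 46.5 and 64 CPM (-0.62 ± 0.18, adjusted p = 0.00997), a call lost with plain library totals (adjusted p = 0.102) and without both libraries that stand apart (adjusted p = 0.0827). Hnf4a, the receptor that holds hepatocyte identity, had 817 ± 56.3 CPM (SD, n = 4) with oil and 661, 670, 289 and 490 CPM with CCl4, just outside the threshold (-0.63 ± 0.25, adjusted p = 0.0521). Alb, albumin, went from 100000-118000 CPM to 45800-90600 CPM (-0.67 ± 0.23, adjusted p = 0.0262). Of 27 secreted and carrier proteins, 8 were called lower and 1 higher. The lower count was 3 without CCl4 animal 3, 5 without oil animal 4 and 13 without CCl4 animal 2, and 2 were higher without CCl4 animal 3. The riser was Apoa4, an apolipoprotein of triglyceride-rich particles, with 221, 277, 94.1 and 262 CPM with oil and 1628, 1523, 3320 and 2233 CPM with CCl4 (3.35 ± 0.47, adjusted p = 1.03e-05). Apoh fell by 0.89 ± 0.19 on the log2 scale, adjusted p = 0.00105 and Apoa2 by 0.94 ± 0.24 on the log2 scale, adjusted p = 0.00477; the Apoa2 call was lost with only the 8 libraries in the fit (adjusted p = 0.0511).

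Complement, clotting and acute-phase proteins are made by hepatocytes. Of 32 complement and coagulation genes, 14 were called lower and 2 higher, with 8 lower without CCl4 animal 3 and 1 higher without CCl4 animal 2 or oil animal 4. F7, clotting factor VII, had 99.1, 86.6, 90.8 and 112 CPM with oil and 42.9, 62.2, 26.4 and 53.6 CPM with CCl4 (-1.07 ± 0.22, adjusted p = 0.000882). C9, the pore-forming complement component, rose from 81.1, 67.5, 72.7 and 80.9 CPM to 140, 268, 112 and 173 CPM (1.20 ± 0.33, adjusted p = 0.00774). Of 25 acute-phase genes tested, 7 were called higher and 1 lower; 3 were higher without CCl4 animal 2, and 4 without oil animal 3 or 4. The lower count was 0 without CCl4 animal 3 or oil animal 2 or 3, and 2 without CCl4 animal 2. Cd14, the lipopolysaccharide co-receptor, had 4.31, 5.3, 2.29 and 2.9 CPM with oil and 98.8, 66.8, 167 and 53.9 CPM with CCl4 (4.72 ± 0.55, adjusted p = 1.12e-06). Saa1, serum amyloid A, overlapped, with 28.7, 7.03, 9.54 and 9.58 CPM with oil and 10.8, 176, 63.5 and 23.9 CPM with CCl4 (2.32 ± 0.73, adjusted p = 0.0184), and its call was lost in 7 of 15 alternatives. Hpx, the heme carrier hemopexin, rose by 0.85 ± 0.27, adjusted p = 0.0171, and its call was lost without CCl4 animal 2 (0.62 ± 0.27, adjusted p = 0.0822). Of 18 metallothionein, zinc and iron genes, 4 were called higher (22.2%) and 2 lower (11.1%), close to the shares of all genes (17.8% and 13.4%). The counts were 2 higher without CCl4 animal 3 and 1 lower without CCl4 animal 1 or 3 or oil animal 4. Mt2, a metallothionein, had 11.6, 27.6, 1.89 and 14.1 CPM with oil and 77.3, 108, 134 and 35.3 CPM with CCl4 (2.69 ± 0.77, adjusted p = 0.0105). Id1, a BMP target that iron loading induces, rose by 2.34 ± 0.44, adjusted p = 0.000341, while Hamp2, a hepcidin gene, went from 465, 272, 416 and 695 CPM to 43, 111, 27.2 and 177 CPM (-2.37 ± 0.79, adjusted p = 0.0252) with its call lost in 4 of 15 alternatives. The other hepcidin gene, Hamp, was not called.

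The summed level of lipogenesis genes was 8727, 10540 and 13510 CPM in CCl4 animals 1 to 3 and 34320 CPM in animal 4, against 17580 to 38260 CPM with oil. Of 27 lipogenesis and storage genes tested, 10 were called lower and 2 higher. The lower count was 4 without CCl4 animal 3, 5 without oil animal 4 and 17 without CCl4 animal 4. Mlxipl, the carbohydrate-responsive factor ChREBP, had 668, 535, 801 and 952 CPM with oil and 250, 325, 155 and 384 CPM with CCl4 (-1.41 ± 0.27, adjusted p = 0.000413), and Dgat2, which completes triglycerides, fell by 0.90 ± 0.17 on the log2 scale, adjusted p = 0.000312. Scd1, the main fatty acid desaturase, had 19392, 12094, 18585 and 27186 CPM with oil and 4110, 5262, 7534 and 26952 CPM with CCl4 (-0.82 ± 0.47, adjusted p = 0.191): animal 4 matched the highest control. Scd1 was a large part of the summed level of the list in every animal, and 26952 of the 34320 CPM in CCl4 animal 4. Plin2, a lipid droplet coat protein, rose from 410, 534, 382 and 444 CPM to 1036, 1127, 2917 and 1050 CPM (1.79 ± 0.26, adjusted p = 1.74e-05). Of 24 cholesterol synthesis genes, 5 were called lower and 0 higher, but 2, 1 or 0 without CCl4 animal 1, CCl4 animal 3 or oil animal 4. Of 28 fatty acid oxidation genes, 7 were called lower and 0 higher, and 3 without CCl4 animal 3 or oil animal 4. Ppargc1a, the coactivator of mitochondrial biogenesis, fell by 1.04 ± 0.27 on the log2 scale, adjusted p = 0.00488.

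Many respiratory chain transcripts were called lower, with small effects. Of 34 nuclear genes, 20 were called lower and 1 higher, with a median of -0.34. The count moved with scaling and single libraries: 2 lower and 2 higher with plain totals, 8 without CCl4 animal 3, 12 without oil animal 1 or 4, and 13 without CCl4 animal 1. The 1 higher was 0 without CCl4 animal 1 or 3 or oil animal 1, 2 or 4. Atp5c1, the rotor stalk of ATP synthase, had 334, 263, 303 and 310 CPM with oil and 201, 207, 160 and 236 CPM with CCl4 (-0.59 ± 0.11, adjusted p = 0.000461). Ndufb5, of complex I, fell by 0.52 ± 0.10 on the log2 scale, adjusted p = 0.000429, a call lost with plain totals (adjusted p = 0.0547). Of 13 mitochondrially encoded genes, 9 had enough counts to be tested, and of these 6 were called lower and 0 higher (2 lower with plain totals). mt-Co2 and mt-Atp6 averaged only 0.379 and 0.322 CPM with oil, far below the other 7, and how the counting treated overlapping or multiply aligned reads is not stated in the labels. The cytochrome oxidase gene mt-Co1 had 25084, 22502, 23254 and 25663 CPM with oil and 18104, 16009, 11707 and 16591 CPM with CCl4 (-0.63 ± 0.17, adjusted p = 0.00821), a call lost with only the 8 libraries in the fit (adjusted p = 0.146).

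Genes of the thyroid hormone pathway were called in both directions. Of 26 tested pathway and target genes, 3 were called higher (11.5%) and 8 lower (30.8%). The share higher was below the 17.8% of all genes, and the share lower was above the 13.4% of all genes. The lower count was 4 without CCl4 animal 3 and 5 without oil animal 1 or 3. Dio1, the deiodinase that makes T3 in liver and a classical T3 target, had 4.77, 5.61, 4.31 and 4.2 CPM with oil and 8.17, 15, 3.95 and 20 CPM with CCl4 (1.31 ± 0.30, adjusted p = 0.00191). CCl4 animals 2 and 4 were high, and animal 3 fell below the controls. Hr, the corepressor hairless and also a T3 target, showed the same order, with 0.502, 0.678, 0.352 and 0.828 CPM with oil and 2.36, 4.33, 0.664 and 7.36 CPM with CCl4 (2.65 ± 0.59, adjusted p = 0.00175). Dio3, which inactivates T3, had 28 counts over the 4 oil animals and 1 over the CCl4 animals, a ratio of 36.2 in favour of oil with a 95% counting interval of 5.98 to 1480. That interval pools the animals and leaves out the spread between them. With that spread, edgeR gave -4.54 ± 0.91, adjusted p = 0.000765. Dio3os, the antisense neighbour of Dio3, had 4.87, 4.69, 6.33 and 5.73 CPM with oil and 0.645, 0.241, 0.185 and 0.361 CPM with CCl4 (-3.88 ± 0.54, adjusted p = 1.14e-05). Without a stated strand setting the reads of neighbouring genes may be shared.

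Growth hormone genes are tied to thyroid status and to sex-biased liver genes. Of 16 genes of that axis, 5 were called lower and 1 higher (3 lower without oil animal 1). Ghr, the growth hormone receptor, had 418, 379, 435 and 465 CPM with oil and 174, 266, 77.4 and 215 CPM with CCl4 (-1.21 ± 0.27, adjusted p = 0.0016). Stat5b, its main signal carrier, fell by 0.85 ± 0.16 on the log2 scale, adjusted p = 0.000393, and Prlr, the prolactin receptor, by 1.12 ± 0.22 on the log2 scale, adjusted p = 0.000659. Igf1, the circulating growth factor that the axis controls, had 339, 296, 324 and 370 CPM with oil and 239, 316, 414 and 321 CPM with CCl4 (-0.04 ± 0.23, adjusted p = 0.901). Of 17 tested sulfotransferase, P450 and oxidase genes known to be higher in female liver, listed after the data were seen, 9 were called lower and 3 higher.

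The spread between injured animals was not even across lists. In summed levels, CCl4 animal 3 was the lowest of the group for P450 genes (6391 CPM, against 15190 to 16790 CPM in the other 3), complement (12500 against 20870 to 27550 CPM) and hepatocyte factors (1591 against 2553 to 3092 CPM). It was the highest for biliary genes (4346 against 1181 to 1397 CPM) and for stressed hepatocyte genes (3533 against 1603 to 1767 CPM). More of that biliary sum was Krt8, a keratin also of hepatocytes, at 2360 CPM than all other members together. The duct markers Krt7, Krt19 and Epcam had at most 6.17, 7.9 and 7.95 CPM in CCl4 animals. Its scar matrix sum was the lowest (1716 against 2247 to 2928 CPM), but most of that sum in every animal was Fn1, and for Col1a1 animal 1 was the lowest. Animal 1 was the highest for AP-1 genes (478.7 against 275.3 to 375.1 CPM) and interferon genes (868.1 against 577.1 to 685.6 CPM).

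**Figure D4:**
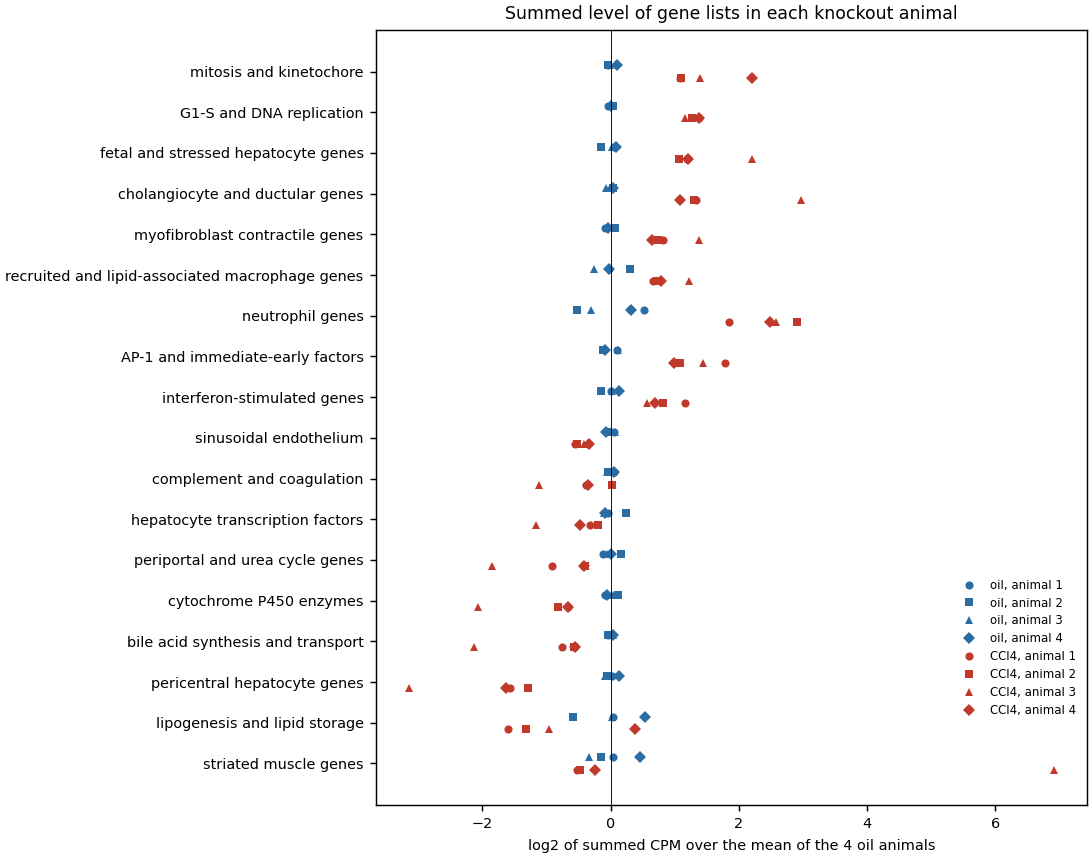
Each symbol is the summed CPM of a list in 1 knockout animal, as log2 over the mean of the 4 oil animals; blue symbols are oil, red symbols CCl4, and the shape gives the animal. Animal 3 (red triangle) lies apart for biliary, P450, pericentral and, at 2174 CPM, striated muscle genes, and animal 4 (red diamond) for mitosis and lipogenesis. Most of the biliary sum of animal 3 was Krt8, a keratin also of hepatocytes, and most of the lipogenesis sum of animal 4 was Scd1.

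The same injury in wild-type hypothyroid mice changed many of the same genes in the same direction. In the 8 wild-type PBS libraries, 3834 genes were called higher with CCl4 (24.6%) and 3368 lower (21.6%). Of the genes called in knockouts, 2168 were higher in both genotypes, 1698 were lower in both and 0 were called in opposite directions. The difference between the effects, tested directly, was called for 3 of 15599 genes (0.0192%), and 1242 genes (7.96%) had an unadjusted p below 0.05. All 3 had the smaller effect in knockouts. Saa1, an inducible serum amyloid gene, had 7.65, 7.24, 5.93 and 5.28 CPM in wild-type oil animals and 472, 3511, 2159 and 1173 CPM in wild-type CCl4 animals. The knockout minus wild-type difference was -5.81 ± 1.06 (unadjusted p = 7.38e-06, adjusted p = 0.0383) for Saa1 and -7.23 ± 1.32 (unadjusted p = 6.77e-06, adjusted p = 0.0383) for its neighbour Saa2. Saa2 had 25, 3.02, 6.2 and 4.61 CPM in knockout oil animals, 4.37, 109, 22.3 and 9.76 CPM in knockout CCl4 animals and 409, 3251, 1893 and 957 CPM in wild-type CCl4 animals. All wild-type injured animals lay above all knockout injured animals for both genes. Ciapin1, which helps to build cytosolic iron-sulfur proteins, differed by -0.98 ± 0.18 (unadjusted p = 6.23e-06, adjusted p = 0.0383). It had 32.4, 33.1, 28.5 and 32.9 CPM with oil and 57.8, 41, 45.1 and 49.5 CPM with CCl4 in knockouts, and 17, 15, 17.6 and 23.5 CPM with oil and 64.9, 58.7, 45.6 and 50.9 CPM with CCl4 in wild type. The injured genotypes overlapped, and the oil-treated knockouts lay above the oil-treated wild types. The number called was 0 when the fit held only the 4 PBS groups, 0 without CCl4 animal 3 or 4 or any single oil animal of the knockouts, 0 without wild-type CCl4 animal 2 or wild-type oil animal 1, 2 or 3, 1 without wild-type CCl4 animal 3 or oil animal 4, and 14 without wild-type CCl4 animal 4.

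Other genotype differences did not pass the adjusted threshold. Lcn2 rose by 3.11 ± 0.64, adjusted p = 0.000815 in knockouts and by 6.33 ± 0.74 in wild type, a difference of -3.21 ± 0.86 (unadjusted p = 0.000846, adjusted p = 0.588). The amino acid transporter Slc7a5 differed by -2.13 ± 0.51 (unadjusted p = 0.000243, adjusted p = 0.552), and the GTPase Rras2 by -1.07 ± 0.26 (unadjusted p = 0.000247, adjusted p = 0.552). Osbpl2, an oxysterol-binding protein, had 29.9 to 41.7 CPM with oil and 36 to 54.1 CPM with CCl4 in knockouts, and 30.9 to 35.5 and 68 to 94.5 CPM in wild type. Its genotype difference had an adjusted p of 0.117 in edgeR and 0.0108 in DESeq2. Ccnd1 reached 21.9 to 139 CPM in injured wild-type livers, below every injured knockout, with a difference of 1.34 ± 0.49 (unadjusted p = 0.0111, adjusted p = 0.588). All 30 mitotic genes had the higher log2 fold change in knockouts, 4 at an unadjusted p below 0.05 and 0 after adjustment, and the median difference was 0.91. Knockout CCl4 animal 4 had the highest mitotic sum, and without it 14 of these genes, not 21, were called higher in knockouts. Members of a list share the same libraries, so their agreement is not that of separate observations. Of 10 neutrophil genes, 9 had the lower log2 fold change in knockouts, with a median difference of -1.65, 5 at an unadjusted p below 0.05 and 0 after adjustment. Over all genes, 8299 of 15599 differences were positive and the median was 0.03.

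**Figure D5:**
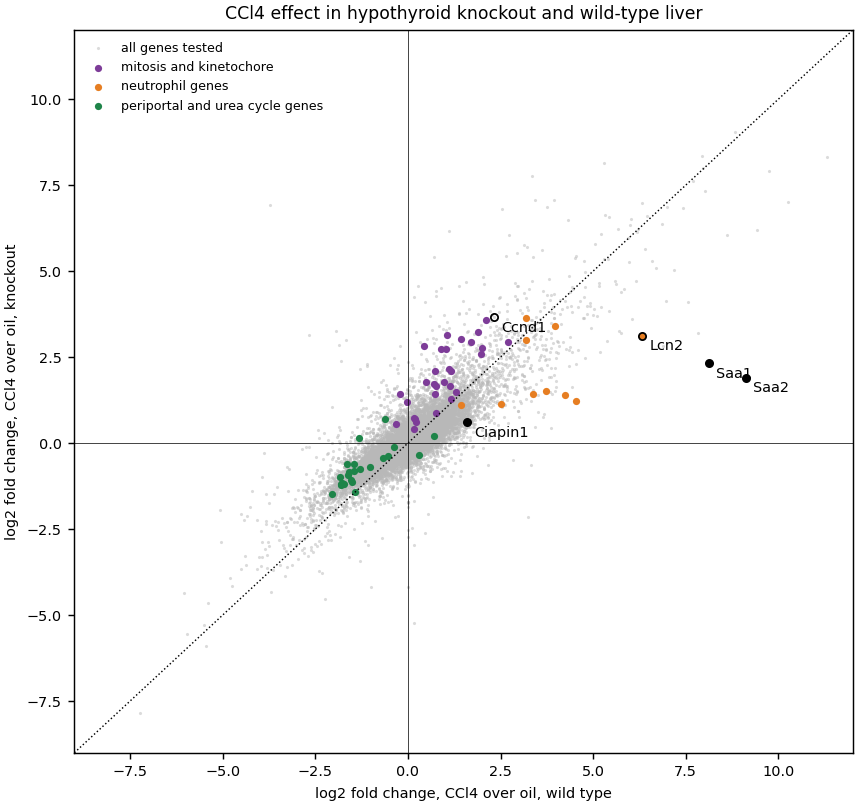
Each point is 1 of 15599 genes, with the log2 fold change of CCl4 over oil in wild type on the horizontal axis and in knockouts on the vertical axis; the dotted line marks equal effects. Filled black points are the 3 genes whose effects were called different (Saa1, Saa2, Ciapin1), all below the line, open points are named genes that were not called, and mitotic genes (purple) lie above the line.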

How the data were processed

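Polyadenylated RNA of whole liver was sequenced from 32 mice, 4 in each of 8 groups, with 1 of 2 TruSeq kits, 1 of them stranded; which library had which kit is not stated. The authors deposited raw counts per gene for each library. STAR 2.7.9a and the build GRCm38 stand in the submitters' processing notes, beside cutadapt, Trim Galore and FastQC 0.11.5. For the counting tool, strand setting and gene models, a statement was not given in the sources used here. Genes were named from GENCODE vM21.

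Counts were tested with edgeR 4.0.16 (quasi-likelihood F test, TMM factors, filterByExpr with a minimum count of 10 and total of 15), with all 32 libraries in 1 model and Benjamini-Hochberg adjustment over 15599 of 52636 genes. The spread is that between animals. The standard error is the log2 fold change divided by the root of F. The genotype difference is the interaction term. DESeq2 1.42.0 was an alternative, as were other scalings, no filter, fewer groups in the model, a replicate block and leaving out each library; leaving out both libraries that stand apart was added after seeing the data. The code was tested on simulated data.

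The members and lists were chosen with earlier results of these data known. Of 972 entries in 42 lists, 969 matched; 5 more lists were written after the data were seen. Genes named are Thrb, Thra and, from each list, up to 4 called members of smallest adjusted p, up to 3 called against the majority and the 2 most abundant uncalled, then, among called genes without overlap, the 15 with the largest rise and the 15 with the largest fall with a mean of at least 5 CPM in a group, the 8 smallest adjusted p, and the genes of the genotype difference that were called or had the 10 smallest unadjusted p. Marker genes and genes of the later lists are also named, and some genes are not reported here. Motif searches used the bases before the start in RefSeq promoter windows.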

Additional observations from a re-analysis of the deposited data

Results flagged for a closer look

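Within each group of 4 knockout animals, single values far from the other 3 by Dixon's test were counted for 127 of the genes given in the report. Others that it gives, such as Ckm, Cfd and Adipoq, were not checked. Of 254 combinations of gene and group, 33 had such a value, and 14 of the 33 were in CCl4 animal 3. The test's chance rate of about 1 in 20 holds only for independent values with a normal spread. CPM values need not have that spread. The genes also share libraries, and many were named from these data, so the 33 cannot be read against that rate. In that animal Krt8 was at 2360 CPM, Plin2 at 2917, Anxa2 at 509, Nid1 at 360, Dgat2 at 313, Cidec at 174 and Cxcl12 at 135 CPM. Ccn1 was at 73.4 CPM there, Asl at 69.9, Tgfbr2 at 62.9, P3h1 at 48.8, Flnc at 36.2, Thbs1 at 35.6 and Tnfrsf10b at 10.5 CPM. Cxcl12 and Asl were low and the others high, Dgat2 among them although its level was below all oil animals. The muscle transcripts described above were found in the same library, and their part in these values was not tested.

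In oil animal 2, Anxa2 stood at 39.1 CPM, Slc1a2 at 29.8, P3h1 at 23.1, Hmox1 at 18.9 and Cidec at 1.97 CPM. In oil animal 1, Saa1 stood at 28.7, Saa2 at 25 and Sprr1a at 1.05 CPM. Ciapin1 (28.5 CPM) and Eda2r (0.176 CPM) stood apart in oil animal 3 and Top2a (0.532 CPM) in oil animal 4. Among CCl4 animals, Slc1a2 (4.19 CPM) stood apart in animal 1. In animal 2, the values were 1.2 CPM for Phgdh, 0.433 CPM for Sult3a1 and 0.0481 CPM for Dio3. In animal 4, they were 26952 CPM for Scd1, 159 CPM for Marco, 42.3 CPM for Oat and 12.3 CPM for Sox9.

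The CCl4 effect differed between knockout and wild type by edgeR's interaction test for Saa1 (-5.81), Saa2 (-7.23) and Ciapin1 (-0.98, knockout minus wild type on the log2 scale).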

How the results depend on the processing

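With plain library totals, 5467 genes were called higher and 866 lower, against 2770 and 2084. Leaving out 1 knockout library gave 1787 to 2642 higher and 1205 to 2081 lower, the lowest without CCl4 animal 3, and leaving out both libraries that stand apart gave 1700 and 1174. The other alternatives stayed within 1.5 times of these counts over all genes, while several list counts moved further with only the 8 libraries compared in the fit, as given in the report. With plain totals, more were called higher among TGF-beta (14), neutrophil (8), basement membrane (8), NRF2 (14) and integrated stress genes (20), and fewer lower among complement (9), cholesterol synthesis (3), fatty acid oxidation (3), thyroid hormone (4) and growth hormone genes (3). Without the filter on low counts, the lower counts were 5 for endothelial genes, 3 for hepatocyte factors, 11 and 3 for nuclear and mitochondrial respiratory chain genes and 4 for thyroid hormone genes. Without both libraries that stand apart, 3 TGF-beta, 2 neutrophil, 11 stressed hepatocyte and 3 acute-phase genes were called higher, and 3 periportal and 2 secreted protein genes lower. The genotype difference, called for 3 genes, was called for 0 with only the PBS groups in the model, for 0 without both libraries that stand apart, and for 0 to 14 when 1 library was left out. Of 127 genes followed, 114 were called, 103 of them under every alternative; 11 lost the call under at least 1, of which 3 without CCl4 animal 3. The called ones were mostly named for a small adjusted p or a large effect in these data. Their share of kept calls therefore does not stand for all genes. Over all genes, 2877 of the 4854 called were also called without CCl4 animal 3. None changed sign while called in these alternatives. With the replicate number as a block, 2659 genes were called higher, 2099 lower and 2 for the genotype difference. The numbers did not pair the animals: correlations of same-numbered deviations were -0.002, -0.025, 0.062 and 0.184, and only number 4 correlated best with its own. Depth of 17447900 to 25306799 counts leaves genes below about 1 CPM resting on few counts per library.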

Other observations

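Trdc, the constant gene of the T cell receptor delta chain, had 0.351, 0.123, 0.088 and 0.0591 CPM in oil animals 1 to 4 and 76.8, 25.5, 4.84 and 22.5 CPM in CCl4 animals 1 to 4 (7.63 ± 0.88, adjusted p = 1.02e-06 by edgeR). All injured animals lay above all controls, animal 1 the most. Cd3e, which T cells of either receptor type need, stayed at 0.573 CPM or less in the injured animals. Of 12 tested genes of the T cell receptor complex, a list written after the data were seen, Trdc was the 1 called higher and 1 was called lower, with a median log2 fold change of -0.34. The gamma chain genes Tcrg-C1, Tcrg-C2 and Tcrg-C4 were at 0.271 CPM or less in all injured animals.

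The clock genes of oil animal 2 lay apart from those of the other oil animals in both arms of the cycle. Nr1d1, a clock repressor, had 93.6 CPM there, and Dbp 20.4 CPM, while Arntl had 16.2 CPM. In wild-type oil animals 2 and 3, Dbp had 46.1 and 16.2 CPM, against 0.506 and 0.732 CPM in wild-type oil animals 1 and 4.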
